A study of Mus musculus with 7 samples.

Results

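The 9 genes described here encode components and receptors of the complement system: C1qa, C1qb and C1qc (the chains of C1q), C4b, C3, Cfb, the inhibitor gene Serping1, and the receptor genes C3ar1 and C5ar1. They were taken by symbol from the Tnc-/- files and by the same Ensembl identifier from the wild-type files, and all 9 of 9 were found among the 56854 identifiers present in every file. RNA was sequenced from whole shoulder joints of 7 mice, 1 library per mouse, 2 weeks after the left supraspinatus tendon, a tendon of the rotator cuff, had been repaired by surgery. The 3 control mice were wild type and the 4 others were Tnc-/-, which lack the matrix glycoprotein Tenascin C; both groups had the repair, and no unoperated joint was analysed here. Strain, sex and age are not given in the sources used here, and a whole joint mixes tendon, muscle, bone, marrow, cartilage, fat and synovium.

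Complement is a cascade of plasma and tissue proteins that marks particles and damaged cells for removal. C1q starts the classical pathway by binding antibody or altered surfaces, which leads to cleavage of C4 and then of C3, the step on which all pathways converge. Factor B amplifies C3 cleavage in the alternative pathway. The released fragments C3a and C5a act on receptors of myeloid cells, among others, and C1 inhibitor, the product of Serping1, blocks the proteases of the C1 complex. The liver makes much of the circulating complement, while macrophages are a main source of C1q within tissues and fibroblasts also make several components.

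No complement gene of the set passed the test for a difference between genotypes. Of the 8 that could be tested, 0 had an adjusted p under 0.05 (edgeR quasi-likelihood test with Benjamini-Hochberg adjustment over all 17791 genes tested), where 29.0% of all genes tested did. At an unadjusted p under 0.05 there was 1, C3ar1, against 42.3% of all genes. The genotypes did not overlap in 2 of the 8 genes, C1qa and C3ar1, against 35.1% of all genes. DESeq2 called 1, again C3ar1 and lower in Tnc-/-, against 39.3% of all genes it tested, and limma voom called 0 against 5.64%. The median log2 fold change, Tnc-/- relative to wild type, was 0.35 over these 8 and -9.0e-04 over all genes tested; 6 of the 8 were positive. Levels below are CPM, read counts scaled to a common library size by TMM, given in the order of library number within each genotype, and the plus-minus values are SDs over 3 wild-type or 4 Tnc-/- libraries.

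Gene counts ran from 13464057 to 28191101 per library. Wild-type libraries 2 and 3 stood apart from the other 5: summed levels of 2026 olfactory, vomeronasal and trace amine receptor genes, which a joint is not known to use, were 89.8, 1564 and 1113 CPM in wild type and 33.3 to 41.5 CPM in Tnc-/-, here on library totals without TMM. This receptor background was higher in every wild-type library than in every Tnc-/- library. As a covariate it therefore separates poorly from genotype, and what calls lost or signs changed in such a fit reflect was not tested. The wild-type files list 126 identifiers that the Tnc-/- files lack, and those list 87 of their own, so the genotypes were counted separately, and counting and genotype cannot be told apart. Tnc itself was at 352 ± 75.5 CPM in wild type and 41.8 ± 9.26 CPM in Tnc-/-, and lower in 4 of 4 libraries, which checks the labels.

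**Figure D1:**
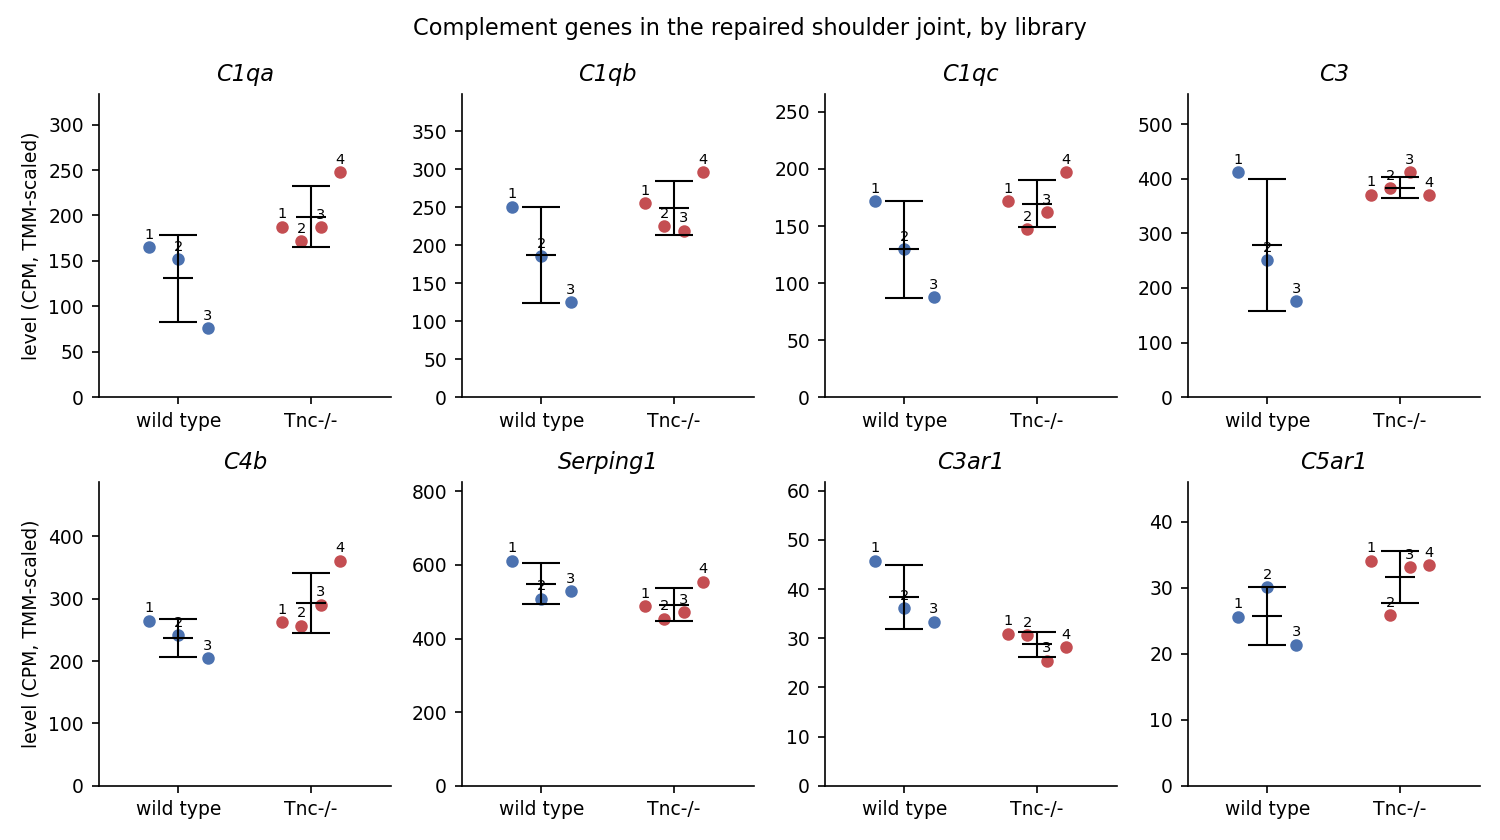
Level (CPM, TMM-scaled, axis from 0) of each of the 8 complement genes with counts, in 3 wild-type (blue) and 4 Tnc-/- (red) libraries; numbers are library numbers, and bars are the mean and SD. The wild-type libraries spread from 75.6 to 165 CPM in C1qa and from 176 to 412 CPM in C3, and the groups are apart in C1qa and C3ar1 only.

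The 3 chain genes of C1q, whose products assemble into the recognition molecule of the classical pathway, did not pass the test. In C1qb and C1qc, wild-type library 1 lay within the Tnc-/- range and libraries 2 and 3 below it, while in C1qa all 3 wild-type libraries lay below it. C1qa was at 165, 152 and 75.6 CPM in wild type and at 188, 172, 187 and 248 CPM in Tnc-/-. All 4 Tnc-/- libraries were above all 3 wild-type libraries, a separation in the higher direction that 17.7% of all genes tested also had, and the gap between the nearest libraries was small. C1qb was at 251, 185 and 125 CPM in wild type and at 255, 225, 219 and 296 CPM in Tnc-/-. Wild-type library 1 lay inside the Tnc-/- range there, so the groups overlapped. C1qc was at 172, 130 and 87.4 CPM in wild type and at 172, 147, 162 and 197 CPM in Tnc-/-. These groups overlapped as well, and wild-type library 3 was the lowest of all 7 for each chain.

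The log2 fold changes of the chains were positive. The value was 0.60 (95% interval -4.7e-05 to 1.21) for C1qa, with an adjusted p of 0.118 (edgeR). For C1qb it was 0.41 (-0.12 to 0.94; edgeR, adjusted p = 0.216) and for C1qc 0.39 (-0.12 to 0.89; edgeR, adjusted p = 0.218). All 3 intervals include 0, and none shows that the genotypes are alike. Without wild-type library 1 all 3 chains were called higher, at 0.90, 0.77 and 0.74 with adjusted p of 0.00515, 0.0027 and 0.00272 (edgeR), but 64.2% of all genes were called in that fit and 24.3% were higher. Against wild-type library 1 alone, assumed to vary as the Tnc-/- libraries do, the values were 0.26, -0.018 and -0.025.

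The ratio of C1qc to C1qb varied little between libraries. It was 0.685, 0.699 and 0.698 in wild type and 0.656 to 0.741 in Tnc-/-. The ratio of C1qa to C1qb varied more, from 0.604 to 0.817 in wild type and from 0.736 to 0.854 in Tnc-/-. Per kilobase of annotated exon, C1qb was above C1qa and C1qa above C1qc in 7 of 7 libraries. Their means were 172, 126 and 67.1 CPM per kilobase in wild type and 228, 191 and 87.9 CPM per kilobase in Tnc-/-.

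Promoter sequences are shown for the chains because C1qb and C1qc stood at nearly the same ratio in every library; RefSeq's table (assembly GRCm38.p6) held 300 bases around the start, 250 before and 50 after, for 5 of the 9 genes. C1qa was not among these 5, so the third chain is missing here. C5ar1 was among them, but its sequence is not shown. The start regions are C1qb at chr4:136886151-136886450 and C1qc at chr4:136892865-136893164, both on the minus strand. Each line reads 5′ to 3′ along the gene, and capitals mark matches on either strand to GGAAGT (the ETS core, as bound by PU.1), TGCTGA (a core bound by Maf factors), TTGCNNAA (a C/EBP form), a kappa B form (GGGA and CC with 4 bases of any kind between them) or an interferon response form (GAAA repeated after 2 bases of any kind).
C1qb: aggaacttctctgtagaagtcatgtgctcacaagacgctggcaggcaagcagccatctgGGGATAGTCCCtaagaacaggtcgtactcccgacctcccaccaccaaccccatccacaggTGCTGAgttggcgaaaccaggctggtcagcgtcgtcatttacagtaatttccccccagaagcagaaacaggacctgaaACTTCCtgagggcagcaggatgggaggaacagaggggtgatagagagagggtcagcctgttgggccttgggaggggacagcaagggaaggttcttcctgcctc
C1qc: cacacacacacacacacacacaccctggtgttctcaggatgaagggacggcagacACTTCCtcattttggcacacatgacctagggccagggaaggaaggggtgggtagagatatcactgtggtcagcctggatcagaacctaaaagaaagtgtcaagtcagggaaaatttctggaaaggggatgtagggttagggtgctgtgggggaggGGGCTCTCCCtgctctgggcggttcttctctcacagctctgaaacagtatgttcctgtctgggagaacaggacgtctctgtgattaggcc
Both hold 1 match to GGAAGT, which 23.8% of all 32851 promoters of this length hold. C1qb also holds TGCTGA, as do 19.5% of promoters, and both hold the kappa B form, as do 20.7%. The pair of kappa B matches in C1qb overlap on opposite strands. Neither holds the interferon form, found in 3.44%. The C5ar1 promoter, not shown, holds GGAAGT and TGCTGA. Such matches describe the letters and show no binding.

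C4b, whose product is cleaved after C1q binds, was at 265, 241 and 205 CPM in wild type and at 262, 257, 290.5 and 361 CPM in Tnc-/-. Wild-type library 1 was above 2 of the Tnc-/- libraries, and the SD was 12.7% of the mean in wild type and 16.4% in Tnc-/-. The log2 fold change was 0.30 (-0.083 to 0.69; edgeR, adjusted p = 0.208). It was 0.48 without wild-type library 1 (edgeR, adjusted p = 0.0241). C4a, a near-identical copy of C4b, had 8 to 31 counts per library. How reads that match both copies were counted is not given in the sources used here, so the level of C4b is uncertain to that extent.

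C3, the central component of the cascade, varied more among wild-type libraries than any other gene of the set. It was at 412, 251 and 176 CPM in wild type and at 371, 383, 412 and 369.6 CPM in Tnc-/-. The SD was 43.2% of the mean in wild type and 5.12% in Tnc-/-. Wild-type library 1 was level with the highest Tnc-/- library, and libraries 2 and 3 lay below all of them. The log2 fold change was 0.46 (-0.14 to 1.05; edgeR, adjusted p = 0.216). It was 0.94 without wild-type library 1 (edgeR, adjusted p = 3.1e-04) and -0.11 against that library alone, so the sign rests on which wild-type libraries are used. The C3 promoter (chr17:57228087-57228386, minus strand, GRCm38.p6) is shown as that of the component on which the pathways converge, with the same motifs in capitals.
C3: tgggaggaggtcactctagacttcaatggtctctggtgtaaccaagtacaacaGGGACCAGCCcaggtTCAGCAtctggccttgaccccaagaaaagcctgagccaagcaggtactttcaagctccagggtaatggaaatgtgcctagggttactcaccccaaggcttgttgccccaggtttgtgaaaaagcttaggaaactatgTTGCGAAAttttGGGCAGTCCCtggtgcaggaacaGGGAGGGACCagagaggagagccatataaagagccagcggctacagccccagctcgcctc
It holds the C/EBP form TTGCNNAA, found in 10.8% of promoters, and 3 matches to the kappa B form and 1 to TGCTGA. No match to GGAAGT was found in these 300 bases.

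Cfb, the protease gene of the alternative pathway, had 0 counts in all 7 libraries, and it could not be tested. For counting error alone, a count of 0 allows up to 3 counts, or 0.111 to 0.199 CPM per library, which is no bound on the level where reads were not assigned. In GENCODE M21, 79.5% of its exon bases are shared with Gm20547, a model on the same strand that also takes in exons of the neighbour C2 and that was itself at 0 in all libraries. C2, a classical pathway protease gene with 46.9% of its exon bases shared with other models, had 15 counts over all 7 libraries. Itgam, which encodes a subunit of complement receptor 3 and is a marker of myeloid cells, was also listed at 0 in every library, with 68.7% of its exon bases shared with another model. Among protein-coding genes, 52.4% of the 599 with at least 50% of exon bases shared were at 0 in all libraries, against 17.5% of the 15317 with none shared. Other genes at 0 shared few exon bases or none. Of the complement genes these were Fcna (6.55% shared) and C8b (0%). Of the marker genes they were Alas2 (15.5%) and Scx, Ms4a1 and Fgb (0% each), and what these zeros reflect was not tested. Reads listed as ambiguous made up 11.4 to 11.6% of the reads in the Tnc-/- files. Whether reads of Cfb were among them was not tested, and the 0 does not show that the gene was silent in these joints.

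Serping1 encodes C1 inhibitor and had the highest CPM of the set. It was at 611, 508 and 528 CPM in wild type and at 488, 454, 471 and 555 CPM in Tnc-/-. The groups overlapped through Tnc-/- library 4. The log2 fold change was -0.16 (-0.50 to 0.18; edgeR, adjusted p = 0.457), and 0.017 without wild-type library 1 (edgeR, adjusted p = 0.926). With library totals as scaling, which shifts the median of all genes to -0.24, it was -0.40 (edgeR, adjusted p = 0.0321), where 25.5% of all genes were called lower and 30.9% called in all. Per kilobase of exon, Serping1 was above C1qb in 3 of 3 wild-type libraries but in 1 of 4 Tnc-/- libraries.

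C3ar1, the receptor gene for C3a, was the member with the lowest p and lay on the other side from the C1q chains. It was at 45.8, 36.1 and 33.3 CPM in wild type and at 30.9, 30.6, 25.5 and 28.2 CPM in Tnc-/-. All 4 Tnc-/- libraries were below all 3 wild-type libraries, as in 17.4% of all genes tested. The log2 fold change was -0.42 (-0.77 to -0.058; edgeR, adjusted p = 0.0775), which does not pass the threshold. Its unadjusted p in the edgeR fit across all genes was 0.0276. Of 21 alternatives, 4 put it past the threshold, with adjusted p from 0.0123 to 1 over all of them. These were DESeq2 (-0.45, adjusted p = 0.0396), library totals in edgeR (-0.65, adjusted p = 0.0123), at least 10 counts in every library in edgeR (-0.49, adjusted p = 0.0437) and wild-type library 1 alone in edgeR (-0.67, adjusted p = 0.0486). A filter of at least 10 counts called 24.3% of all genes, with 14.3% lower, and library 1 alone called 4.45%, with 1.92% lower. Without wild-type library 1 the value was -0.18 (edgeR, adjusted p = 0.334), and it was below 0 in all 21 alternatives. The C3ar1 promoter (chr6:122856108-122856407, minus strand, GRCm38.p6) is shown as that of the member with the lowest p.
C3ar1: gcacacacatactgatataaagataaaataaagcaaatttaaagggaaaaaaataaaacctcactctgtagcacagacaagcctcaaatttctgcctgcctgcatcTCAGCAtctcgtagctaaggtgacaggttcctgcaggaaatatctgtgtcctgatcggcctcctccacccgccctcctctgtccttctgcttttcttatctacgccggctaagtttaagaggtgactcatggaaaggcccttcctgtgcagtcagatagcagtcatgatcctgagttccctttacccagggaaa
Its capitals are a single TGCTGA match, read on the opposite strand, and none of the other 4 motifs was found in these 300 bases.

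C5ar1, the receptor gene for C5a on neutrophils and macrophages, was at 25.6, 30.1 and 21.4 CPM in wild type and at 34.1, 25.8, 33.1 and 33.5 CPM in Tnc-/-. Tnc-/- library 2 fell among the wild-type libraries, while the other 3 lay above them. The log2 fold change was 0.30 (-0.097 to 0.70; edgeR, adjusted p = 0.225). It was between 0.057 and 0.43 in the 21 alternatives and past the threshold in none of them. Per kilobase of exon the receptor genes were the lowest of the 8, at 8.92 ± 1.52 (C3ar1) and 9.998 ± 1.70 CPM per kilobase (C5ar1) in wild type, an order that did not exceed their spread. In Tnc-/- they were at 6.69 ± 0.586 and 12.3 ± 1.51 CPM per kilobase, and C5ar1 was above C3ar1 in 4 of 4 libraries.

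**Figure D2:**
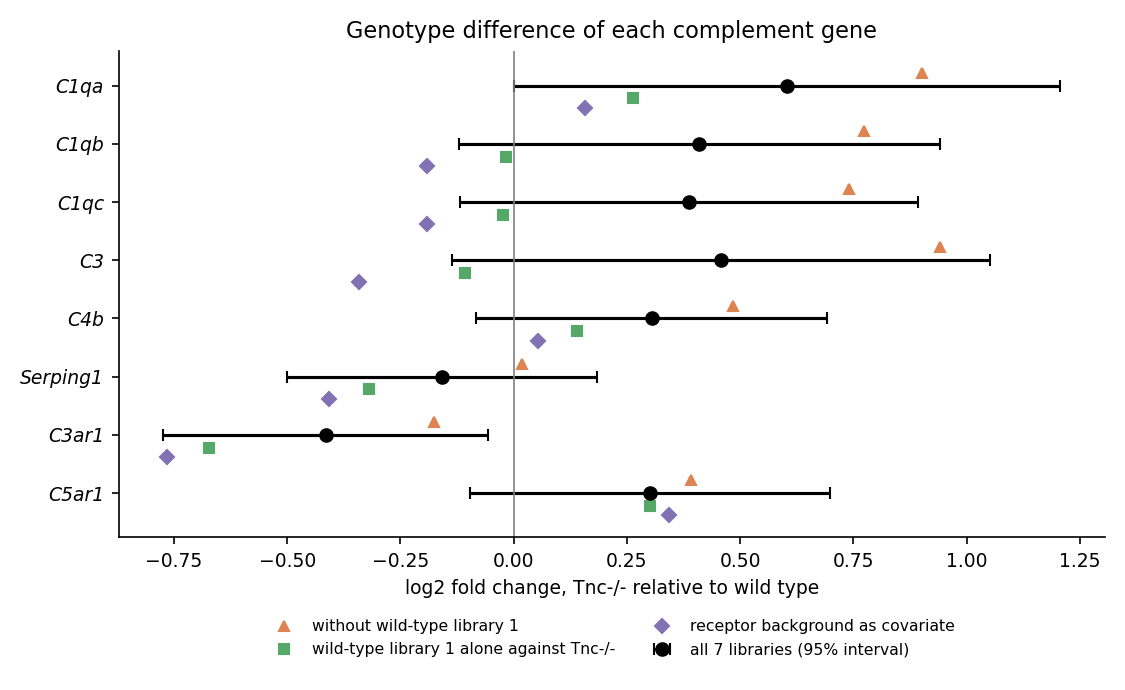
Log2 fold change of each complement gene, Tnc-/- relative to wild type, with all 7 libraries and its 95% interval (black), without wild-type library 1 (orange), with that library alone as wild type (green) and with the receptor background as a covariate (purple). Leaving out library 1 moves all 8 values up, C3 to 0.94, while C3ar1 stays below 0 in every fit.

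The members shared an order over the wild-type libraries. Library 1 was the highest of the 3 in 7 of 8 genes, C5ar1 being the exception, where 42.3% of all genes tested had it highest. Library 3 was the lowest in 7 of 8 genes, all but Serping1, where 25.2% of all genes did. From library 1 to library 3 the level differed by 2.18 times in C1qa, 2.00 in C1qb, 1.97 in C1qc and 2.34 in C3, against 1.16 in Serping1. The summed receptor background was higher in every wild-type library than in every Tnc-/- library, so as a covariate it separates poorly from genotype. With it as a covariate, the log2 fold changes were 0.16 (C1qa), -0.19 (C1qb), -0.19 (C1qc), -0.34 (C3) and 0.055 (C4b). In the same fit Serping1 was at -0.41 and C3ar1 at -0.77, both further below 0 than without the covariate, and C5ar1 was at 0.34. None of the 8 members was called there (edgeR, adjusted p = 0.0977 for C3ar1, the lowest), against 2.23% of all genes, and C3ar1 had an unadjusted p of 0.00576 in that fit across all genes.

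Macrophages are a usual tissue source of C1q, and their 18 listed marker genes had totals of 6152, 3774 and 3387 CPM in wild type, against 5388 to 6187 CPM in Tnc-/-, and none of them was at 0. Lyz2, Ctsb and Apoe make up most of these totals. Of the 18 genes, 2 were called higher and 0 lower, where 10.3% of all genes were higher and 18.7% lower. Their median log2 fold change was 0.29, with 14 of 18 positive and Adgre1, Maf, Mertk and Folr2 negative (-0.23, -0.25, -0.13 and -1.37, none called). Those called were Spi1, which encodes PU.1 (log2 fold change 0.79, SE 0.22; edgeR, adjusted p = 0.0283), and Cd14 (0.58, SE 0.19; edgeR, adjusted p = 0.047). Leaving out any library but wild-type library 1 ended both calls, with adjusted p up to 0.0969 and 0.142, and over all 21 alternatives the calls held in 10 (Spi1) and 4 (Cd14). Without wild-type library 1, where the C1q chains were called, 11 of the 18 were called higher, Csf1r, Lyz2, Ctsb, Apoe and Trem2 among them, and Folr2 lower. In that fit 64.2% of all genes were called and 24.3% were higher. With library totals Adgre1 and Maf were called lower and Spi1 higher, where 25.5% of all genes were lower and 30.9% called in all. The most abundant of the list, Lyz2 and Ctsb, were not called, at 0.40 and 0.21 (edgeR, adjusted p = 0.296 and 0.499). In a whole joint, fewer cells of a type and less RNA per cell cannot be told apart, and the part of macrophage number in the C1q values was not tested.

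Ratios within a library do not depend on the scaling of libraries; those given here were chosen after the values were seen and carry no test. The summed C1q chains were 6.88, 7.46 and 5.27 times Adgre1 (the macrophage antigen F4/80) in wild type and 10.4, 11.1, 9.75 and 11.6 times in Tnc-/-. The groups did not overlap in this ratio. Against Csf1r, the receptor for the macrophage growth factor CSF1, the chains were 1.93 to 2.97 times in wild type and 2.76 to 3.31 times in Tnc-/-, and the groups overlapped. C3ar1 was 0.185, 0.230 and 0.223 of Csf1r in wild type and 0.148, 0.155, 0.124 and 0.126 in Tnc-/-, again without overlap. Against Adgre1, C3ar1 was 0.536 to 0.610 in wild type and 0.437 to 0.625 in Tnc-/-, which overlapped. C5ar1 was 0.559, 0.834 and 0.641 of C3ar1 in wild type and 1.10, 0.845, 1.30 and 1.19 in Tnc-/-. The groups were apart here too, by a narrow margin between wild-type library 2 and Tnc-/- library 2. Adgre1 itself had a log2 fold change of -0.23 and Csf1r one of 0.18, neither of them called (edgeR, adjusted p = 0.336 and 0.515).

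**Figure D3:**
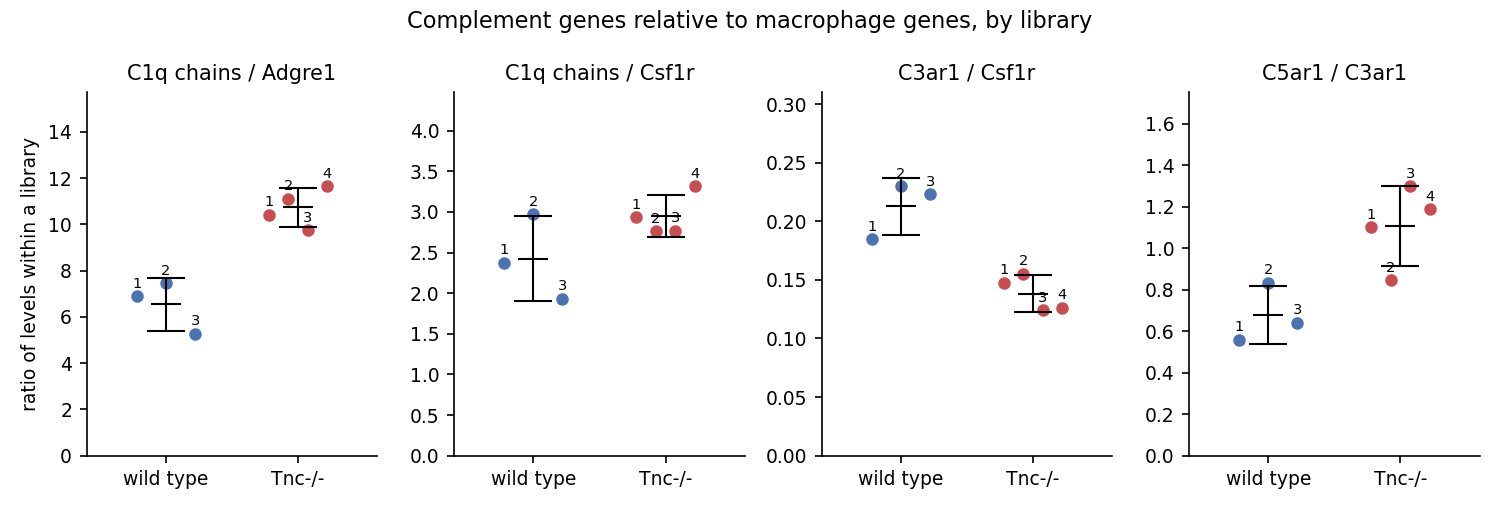
Ratios of CPM within each library, axes from 0, for wild type (blue, n = 3) and Tnc-/- (red, n = 4); numbers are library numbers, and bars are the mean and SD. The C1q chains relative to Adgre1 run from 5.27 to 7.46 in wild type and from 9.75 to 11.6 in Tnc-/-, while relative to Csf1r the groups overlap.

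The other 53 genes of the complement system were read from the same fit. Of these, 39 were tested, 4 were higher and 11 lower in Tnc-/- (edgeR, adjusted p under 0.05), where the background is 10.3% higher and 18.7% lower. Of the 11 lower genes, 7 had at most 26 counts in any Tnc-/- library (Colec10, C9, Cfi, Cpn1, Cpn2, Csmd2 and Csmd3), so the number of lower genes among those that passed the filter on low counts is a description only. With at least 10 counts in every library 28 were tested, and 3 were higher and 5 lower, where 24.3% of all genes were called and 14.3% were lower. Left-out libraries moved the total of 15 to 28 (wild-type library 1), 6 (wild-type library 3) and 9 (Tnc-/- library 1, 3 or 4). Over all genes, 5159 of 17791 were called with every library kept. In those fits 14113 of 21989, 2229 of 18116, and 2899 of 17503, 2554 of 17584 and 2904 of 17580 were called. With the receptor background as a covariate the total of 15 became 2, Csmd3 and C1s1, both lower, where 2.23% of all genes were called.

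Among genes of the classical and lectin pathways, 1 of 8 tested was higher and 1 lower. Fcnb, which encodes ficolin B, a lectin of myeloid cells, was at 38.5, 12.3 and 20.2 CPM in wild type and 50.4 to 89.9 CPM in Tnc-/- (log2 fold change 1.51, SE 0.37; edgeR, adjusted p = 0.0181). Wild-type library 3, Tnc-/- library 1 and Tnc-/- library 3 were each needed for the call (adjusted p up to 0.0829 when 1 was left out, edgeR). Colec10, a collectin gene, was at 0.859, 6.98 and 4.98 CPM in wild type and 0.224 to 0.557 CPM in Tnc-/- (-3.48, SE 0.76; edgeR, adjusted p = 0.0121). It had 4 to 11 counts in each Tnc-/- library, so it passed the filter on low counts through wild type. With the background covariate the value was -0.26, and against wild-type library 1 alone it was -1.18, neither of them called (edgeR, adjusted p = 0.904 and 0.455). The partners of C1q in the C1 complex were not called: C1ra was at 84.6 ± 26.2 and 94.7 ± 17.2 CPM (0.16; edgeR, adjusted p = 0.609) and C1s1 at 32.5 ± 15.02 and 29.3 ± 2.94 CPM (-0.15; edgeR, adjusted p = 0.702). Without wild-type library 1, C1ra was called at 0.54 (edgeR, adjusted p = 0.0121).

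In the alternative and terminal pathways, Cfp was called higher and C6 and C9 lower, of 6 tested. Cfp encodes properdin, which stabilises the alternative C3 convertase and is made by myeloid cells. It was at 59.04, 43.8 and 34.8 CPM in wild type and 71.5 to 93.1 CPM in Tnc-/- (0.83, SE 0.19; edgeR, adjusted p = 0.0137), and 0.67 with an adjusted p of 0.0512 (edgeR) without wild-type library 3. C9, the pore-forming component, had 23, 236 and 228 counts in wild type and 0, 3, 1 and 0 in Tnc-/- (edgeR, adjusted p = 0.00701), so it passed the filter on low counts through wild type alone. C6, which joins the terminal complex, was at 2.90, 20.5 and 14.9 CPM in wild type and 1.46 to 2.34 CPM in Tnc-/- (-2.82, SE 0.60; edgeR, adjusted p = 0.0115), with an adjusted p of 0.051 (edgeR) without wild-type library 3. With the background covariate the C6 value turned to 0.17, and against wild-type library 1 alone it was -0.68, neither of them called (edgeR, adjusted p = 0.888 and 0.368). Cfd, the adipocyte-made factor D gene, was at 172 ± 105 and 207 ± 42.6 CPM and not called (0.27; edgeR, adjusted p = 0.599), but called at 0.90 without wild-type library 2 (edgeR, adjusted p = 0.0324). C7 was at 10.95 ± 3.98 and 11.5 ± 3.38 CPM (edgeR, adjusted p = 0.887).

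Of 15 regulators tested, 7 were lower and 0 higher, where 18.7% of all genes were lower and 10.3% higher. Nothing is read from that share, since 5 of the 7 (Cfi, Cpn1, Cpn2, Csmd2 and Csmd3) are among the genes with at most 26 counts in any Tnc-/- library. The 7 were Cfi (factor I, which inactivates C3b), Cpn1 and Cpn2 (the subunits of carboxypeptidase N, which inactivates C3a and C5a), Susd4 and the large-gene family Csmd1, Csmd2 and Csmd3. Csmd1 was at 13.4, 205 and 130.2 CPM in wild type and 8.06 to 11.4 CPM in Tnc-/- (-3.57, SE 0.71; edgeR, adjusted p = 0.0102). With the background covariate the Csmd1 value turned to 0.71, and against wild-type library 1 alone it was -0.46, neither of them called (edgeR, adjusted p = 0.133 and 0.280). Cpn2 turned too, to 2.32 and 0.87 in those fits. Csmd3 had 87, 2541 and 2153 counts in wild type and 0, 3, 4 and 7 in Tnc-/-, and Csmd2 had 47, 1732 and 1329 against 26, 3, 8 and 5. All 11 lower genes of the 4 lists were at least 2 times as high in the mean of wild-type libraries 2 and 3 as in library 1, as were 2756 of the 3329 genes called lower and 4717 of all 17791 tested. With 1 library left out, Cfi and Cpn1 were no longer called in 5 of 7 fits and Cpn2 in 5 of the 6 that tested it (edgeR, adjusted p up to 0.161).

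Clu, the gene of the terminal pathway inhibitor clusterin, was at 188 ± 34.1 and 196 ± 27.9 CPM and not called (0.063; edgeR, adjusted p = 0.813).

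Of the other receptor genes, 2 of 10 tested were higher and 1 lower. Lrp1, an endocytic receptor gene that also serves C1q-coated cells, was at 606, 424 and 479 CPM in wild type and 730 to 1001 CPM in Tnc-/- (0.79, SE 0.20; edgeR, adjusted p = 0.0207). C1qbp, a C1q-binding protein gene of mitochondria, was at 51.1 ± 9.12 and 69.2 ± 3.56 CPM (0.44, SE 0.14; edgeR, adjusted p = 0.0487). Megf10, a phagocytic receptor gene of satellite cells and glia, was at 11.1, 37.1 and 29.3 CPM in wild type and 10.1 to 14.2 CPM in Tnc-/- (-1.11, SE 0.36; edgeR, adjusted p = 0.0477). The call of Lrp1 needed wild-type libraries 2 and 3 and Tnc-/- libraries 3 and 4 (edgeR, adjusted p up to 0.0803 when 1 of them was left out). C1qbp and Megf10 lost theirs without any library but wild-type library 1 (adjusted p up to 0.158 and 0.180, edgeR). The C1qbp call held in 4 of 21 alternatives and was also lost with DESeq2's size factors, library totals and upper-quartile scaling in edgeR (adjusted p = 0.0666, 0.195 and 0.0888) and in limma voom (adjusted p = 0.0909). The Megf10 call held in 8 of 21, and its value turned to 0.64 with the background covariate and to 0.11 against wild-type library 1 alone (edgeR, adjusted p = 0.303 and 0.832). Itgb2, the shared beta chain of complement receptors 3 and 4, was at 101 ± 55.1 and 186 ± 33.5 CPM (0.89, SE 0.32; edgeR, adjusted p = 0.0695), and 1.53 without wild-type library 1 (edgeR, adjusted p = 1.0e-05). Calr, the calreticulin gene, was the second most abundant of these receptors and not called (0.054; edgeR, adjusted p = 0.858).

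**Figure D4:**
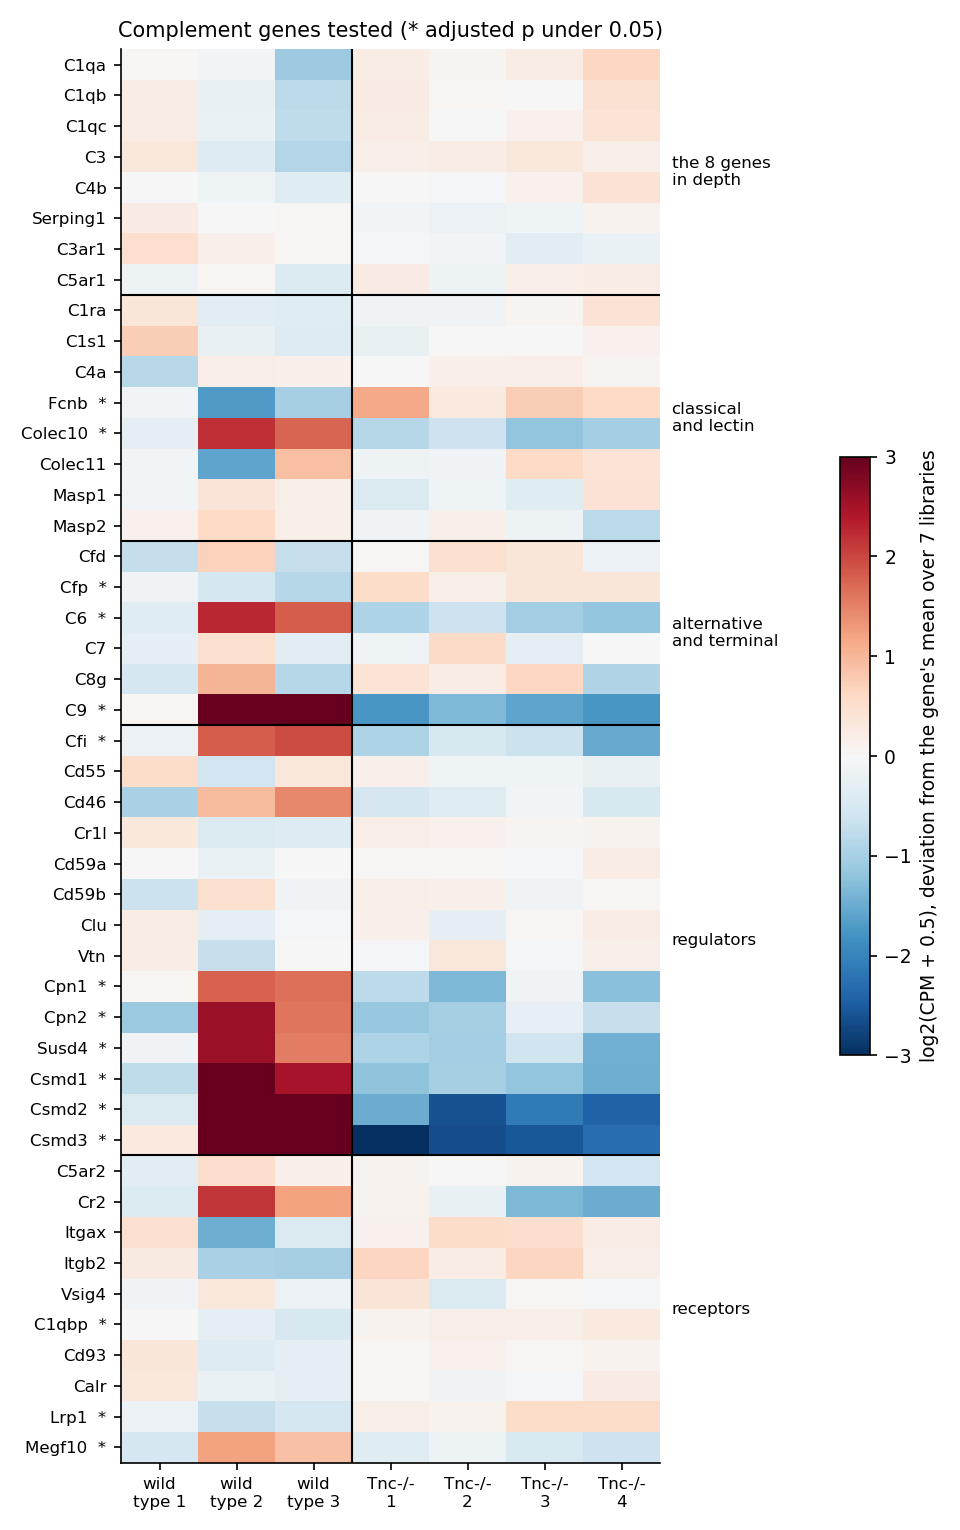
Log2(CPM + 0.5) of the 8 members and 38 of the 39 other complement genes tested, as the deviation from each gene's mean over 7 libraries (colours end at -3 and 3), in rows grouped by role; an asterisk marks an adjusted p under 0.05. The 11 genes called lower are high in wild-type libraries 2 and 3 and not in library 1, a pattern that the 8 members do not have.

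Markers of other cells of the joint were read from the same fit. The 13 neutrophil genes had totals of 6519, 3230 and 3595 CPM in wild type, against 6981 to 11692 CPM in Tnc-/-. Of these, 9 were called higher and 0 lower, where 10.3% of all genes were higher and 18.7% lower, and none was at 0. Mpo, Elane, S100a8 and Mmp9 were the 4 not called, Mmp9 at -0.029. The 9 calls became 12 without wild-type library 1, 2 without wild-type library 2 (Csf3r and Camp), 1 without wild-type library 3 (Camp), 2 without Tnc-/- library 1 or 3 and 6 without Tnc-/- library 4. Over all genes, 5159 of 17791 were called with every library kept. In those fits, in the same order, 14113 of 21989, 2896 of 18114, 2229 of 18116, 2899 of 17503, 2554 of 17584 and 2904 of 17580 were called. The neutrophil calls were 0 with the background covariate, which separates poorly from genotype and with which 2.23% of all genes were called. Of the erythroid genes, 3 of 4 tested were called higher, with totals of 4334 to 8418 CPM in wild type against 12283 to 24390 CPM in Tnc-/-. Their median log2 fold change was 1.34, against 1.16 for the neutrophil genes, and Alas2 was at 0 in every library. The 3 erythroid calls became 1 without wild-type library 2 or Tnc-/- library 1 or 3, and 0 without wild-type library 3, with the background covariate and against wild-type library 1 alone. The globin genes Hbb-bs and Hba-a1 rose by 1.61 and 1.20 on the log2 scale (edgeR, adjusted p = 0.0103 and 0.0275). Without wild-type library 3 neither was called (adjusted p = 0.0516 and 0.107, edgeR), and the Hba-a1 call also needed wild-type library 2 and Tnc-/- libraries 1 to 3. The 6 skeletal muscle genes had totals of 17934 to 23631 CPM in wild type and 25734 to 37885 CPM in Tnc-/-, with 2 called higher and 0 lower, 6 of 6 positive and a median of 0.74. Those called, Myh4 (a fast myosin heavy chain gene) and Ryr1 (the calcium release channel gene), rose by 1.18 and 1.28 (edgeR, adjusted p = 0.00856 and 0.00992). Both calls held without any 1 library and were lost with the background covariate and against wild-type library 1 alone. Acta1, the most abundant, was at 0.23 (edgeR, adjusted p = 0.522). The part of either cell type in Fcnb and Cfp was not tested. S100a9, the most abundant, rose by 1.22 on the log2 scale (SE 0.30; edgeR, adjusted p = 0.0187). That call needed wild-type libraries 2 and 3 and Tnc-/- libraries 1 and 3 (edgeR, adjusted p up to 0.084 when 1 of them was left out). S100a8 had 0.84 (edgeR, adjusted p = 0.0618), and was called without wild-type library 1. The 12 fibroblast genes, of a cell type that also makes C3 and C1 inhibitor, had totals of 32414 to 51420 CPM in wild type and 34361 to 59424 CPM in Tnc-/-. Of these, 1 was called higher and 2 lower, and none was called without wild-type library 3 or Tnc-/- library 1, 3 or 4. The tendon factor Scx of this list was at 0 in every library. As for Cfb, a listed 0 does not show that Scx or Alas2 was silent. The collagen genes Col1a2 and Col1a1 led that list and were not called (0.045 and 0.27; edgeR, adjusted p = 0.922 and 0.542). The 6 hepatocyte genes summed to 1.82, 20.4 and 8.69 CPM in wild type and 2.13 to 6.29 CPM in Tnc-/-, with Fgb at 0 in every library. Serpina1a, the only one tested, was not called (-0.27; edgeR, adjusted p = 0.764), and Alb had 0, 183 and 60 counts in wild type and at most 2 in Tnc-/-. Over 11 marker lists and 1 list of interferon response genes, 25 of the 89 genes tested were called, where 29.0% of all genes were called. Of these 25, 21 were higher and 4 lower, where 10.3% of all genes tested were higher and 18.7% lower.

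The genes whose profiles over the 7 libraries lay nearest to the members were of mixed kinds. Likeness was the root-mean-square difference between log2 deviations from each gene's own mean, over 12314 to 12316 named genes averaging 5 CPM or more. These are descriptions over libraries that share genotype, depth and counting run. Nearest to the mean of the C1q chains were Tnnt1 (0.0565 log2 units), Rps15 (0.0681), Sting1 (0.0696), H2-Eb1 (0.0821) and Nt5c (0.0839). Tnnt1 encodes slow muscle troponin T, and H2-Eb1 an MHC class II chain of antigen-presenting cells. C1qb and C1qc lay at 0.0627 and 0.0637 from this mean and C1qa at 0.114, but each chain is itself part of the mean. Nearest to C3 were Nubp2 (0.061), Ppp1r3d (0.0732), Mrpl46 (0.0869), Ctss (0.0905) and Trem2 (0.0943), of which Ctss and Trem2 are expressed by macrophages. Nearest to C4b were Tppp3 (0.0497), Metrnl (0.0549), Plvap (0.0584), Plscr3 (0.0592) and S100a6 (0.0632).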

How the data were processed

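Poly(A)-selected RNA of 7 whole shoulder joints was sequenced, 1 library per mouse. The values are raw read counts per gene as deposited, 1 file per library. Per the submitters' processing notes, HISAT2 2.2.1, HTSeq 2.0.2, FastQC 0.11.9 and DESeq2 1.38.3 were used with GRCm39; the annotation is not given in the sources used here. Rows that name no gene held 30.1 to 32.7% of the reads in the Tnc-/- files (the wild-type files list none) and were left out. Genotype labels gave the groups.

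The identifiers common to all files went into edgeR 4.0.16 (R 4.3.3) with default filterByExpr, TMM scaling, robust dispersions, the quasi-likelihood F test with genotype as the only term, and Benjamini-Hochberg adjustment over all genes tested. Standard errors come from the log2 fold change and F. The test was checked on simulated counts. Alternatives used DESeq2 1.42.0, limma 3.58.1, other scalings, filters and covariates, and left out each library. A count of 0 allows 3 counts, which covers counting error only. Exon lengths and overlaps are unions of exons in GENCODE M21 (91.5% of identifiers matched), so levels per kilobase depend on that annotation. No strand setting is stated.

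Members, gene lists and tests were chosen with earlier results of these data known. Named genes are the members, the other complement genes called, the 2 most abundant uncalled genes of each role list and the 2 most abundant of the macrophage, neutrophil, fibroblast, hepatocyte, erythroid and skeletal muscle lists, the 5 nearest profiles, and Tnc; Adgre1, Csf1r, the other macrophage and neutrophil genes, Ryr1, Itgam and the genes named as being at 0 were named after their values were seen. A gene outside the 9 members that this naming rule would include is not reported here.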

Additional observations from a re-analysis of the deposited data

Results flagged for a closer look

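Of 46 genes checked within Tnc-/- with Dixon's test at the 95% level, 1 had an outlying library; by chance about 1 in 20 would. That gene was C5ar1, at 25.8 CPM in Tnc-/- library 2 and at 33.1 to 34.1 CPM in the other 3. On the log2 scale the distance from library 2 to the next was 0.891 of the spread of all 4.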

How the results depend on the processing

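Of the 974 values of 47 named genes over 21 alternatives, 717 kept their direction and side of the threshold, 171 lost the call, 23 gained it and 63 changed sign. The number of members called of the 8 tested, 0 at first, was 2 with library totals, where 30.9% of all genes were called. It was 1 with at least 10 counts in every library and 1 with DESeq2, where 24.3% and 39.3% of all genes were called. It was 0 to 5 when a library was left out, with the 5 without wild-type library 1, where 64.2% of all genes were called. The number of other complement genes called, 15, was 8 with at least 10 counts in every library, 0 with a Bonferroni adjustment in edgeR, 23 with DESeq2, 4 with a Bonferroni adjustment in DESeq2, 3 with limma voom, 3 with wild-type library 1 alone, 2 with the background covariate and 6 to 28 without a library. The number of marker genes called, 25, was 0 and 5 with those Bonferroni adjustments, 8 with limma voom, 4 with wild-type library 1 alone, 1 with the covariate and 5 to 56 without a library. Over all genes tested, 5159 calls (1830 higher, 3329 lower) became 9423 with DESeq2, 22 with Bonferroni in edgeR, 3453 with at least 10 counts, 951 higher and 4541 lower with library totals, 728 and 276 with limma voom, and 194 and 203 with the covariate. With a library left out they ran from 2229 (wild-type library 3) to 14113 (wild-type library 1).

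Replicate numbers did not pair the libraries: the correlations of same-numbered deviations were -0.042, 0.054 and -0.017, and 1 of 3 libraries correlated best with its own number. With the replicate block, 0 members, 5 other complement genes and 1932 genes in all were called, and Col1a2 was at -0.13.

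Log2 fold changes that changed sign were as follows. With the background covariate they were C1qb -0.19, C1qc -0.19, C3 -0.34, C6 0.17, Cpn2 2.32, Csmd1 0.71, Megf10 0.64, C1ra -0.54, Clu -0.35, Calr -0.50, Itgb2 -0.18, Lyz2 -0.49, Ctsb -0.45, S100a8 -0.040, Col1a2 -0.61, Col1a1 -0.40, Serpina1a 1.59, Acta1 -0.12 and Csf1r -0.46. With wild-type library 1 alone they were C1qb -0.018, C1qc -0.025, C3 -0.11, Cpn2 0.87, Megf10 0.11, C1ra -0.28, Clu -0.20, Calr -0.31, Lyz2 -0.19, Ctsb -0.22, Col1a2 -0.33, Col1a1 -0.11, Serpina1a 0.99, Acta1 -0.014 and Csf1r -0.25. With library totals they were C1ra -0.064, C7 -0.18, Clu -0.17, Calr -0.17, Ctsb -0.016, Col1a2 -0.19, Acta1 -0.012 and Csf1r -0.047. With upper-quartile scaling they were Clu -0.0048, Calr -0.012 and Col1a2 -0.022, and with at least 10 counts C7 -0.014, Clu -0.014, Calr -0.021 and Col1a2 -0.029. When a library was left out, the values that changed sign for some library ran, as lowest to highest, over Serping1 -0.22 to 0.017, C1s1 -0.35 to 0.39, C7 -0.15 to 0.42, Clu -0.051 to 0.30, Calr -0.061 to 0.37, Col1a2 -0.17 to 0.37, Serpina1a -0.80 to 0.12 and Adgre1 -0.36 to 0.065. Serping1, C1s1 and Adgre1 changed sign without wild-type library 1, Serpina1a without wild-type library 2, and the others without 2 or 3 different libraries. Apart from the smaller numbers of genes or libraries some settings use, the cause was not tested.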
